A study of Mus musculus with 162 samples.

Results

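The brainstem of the mouse, labelled BST and dissected as mesencephalon, pons and myelencephalon together, is described here against 3 other parts of the same brains. The members were taken by the organ in the sample title and are 18 BST libraries of 162 libraries in the series. They were set against 18 libraries of olfactory bulb (OB), 18 of cerebellum (CBL) and 16 of the remaining brain (BRN), which holds the telencephalon and the diencephalon. BRN 8 h replicate 3 and BRN 18 h replicate 1 were left out by the same choice, so that 70 libraries were used.

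The study profiled mRNA in 9 organs of male wild type C57BL/6J mice after short fasts. According to its methods, the mice were 8 to 9 weeks old. Mice had free access to food (0 h) or were without it for 2 or 8 h, for 12 or 18 h, or for 22 h, with 3 mice at each time, and all were killed after the start of the dark phase, so that the fasts began at different clock times. Every mouse gave all organs, and by the animal numbers in the labels replicate 1 of BST and replicate 1 of OB at a given time come from the same animal. RNA was purified on silica columns and sequenced from stranded libraries of polyadenylated RNA, and the deposited values are read counts for each gene symbol. Comparing BST with the other brain regions asks which transcripts set the brainstem apart, and whether that depends on the length of the fast.

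BST libraries held 6998492 to 11776354 counts (median 10540289), OB libraries 8224940 to 17704828, BRN libraries 3045845 to 12108290 and CBL libraries 6487419 to 22071004. The deepest CBL libraries were those of 0 h, at 20396385 to 22071004 counts against 6487419 to 9487976 at later times. According to the column headers, all 18 BST libraries were sequenced in lane 4 and all 18 CBL libraries in lane 3, so region and lane cannot be told apart for that pair. OB libraries came from lanes 3 and 4 (10 in lane 4), and BRN libraries from lanes 1 to 5 (6 in lane 4). These are the lane numbers of the headers, which name no run. Pairs of sample and lane numbers recur in different libraries of the series, so libraries with the same lane number need not share a lane. Mitochondrial transcripts took 4.50 to 6.66% of BST counts, 3.87 to 6.41% in OB, 3.49 to 12.2% in BRN and 4.00 to 6.26% in CBL. The spread among the 3 libraries of a group, as the median over genes of the SD of log2 CPM, was 0.165 in BST, 0.173 in OB, 0.494 in BRN and 0.186 in CBL.

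Levels are given as CPM, counts relative to library totals scaled by the TMM method, as lowest to highest library with the median. A log2 fold change (log2FC) is BST minus the other region, taken within each fasting time and averaged over the 6 times. After the ± sign stands an approximate standard error, the size of the log2FC divided by the square root of the test's F value. It is back-calculated and a rough guide for genes near 0 counts. A gene is called higher or lower where edgeR's quasi-likelihood test with Benjamini-Hochberg adjustment over all tested genes gave an adjusted p under 0.05 and the log2FC was beyond 1 in size. For a gene with no count in a region, the fold is a lower bound from 3 counts over that region, and with 1 to 3 counts it is a ratio with its 95% counting interval. Those intervals and the floor of 3 counts, which lay at 0.258 to 0.425 CPM in single BST libraries, cover counting error only.

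All 70 libraries correlated best with the mean of their own region. BRN 18 h replicate 2 and BRN 12 h replicate 2 did so least (0.8587 and 0.893, the other BRN libraries at 0.9388 to 0.9811), and had the fewest counts (3045845 and 3152641) and the highest mitochondrial shares (11.8 and 12.2%). Within BST, 2 libraries stood apart. BST 0 h replicate 2 had summed levels of 958.6 CPM for 10 Purkinje cell markers and 806.3 CPM for 12 cerebellar granule cell markers, and BST 2 h replicate 1 had 709.5 and 646.5 CPM. Each of the other 16 BST libraries lay between 339.3 and 431.3 CPM for the first list and between 406.3 and 488.4 CPM for the second. In CBL the same sums were 7145 to 9213 and 5445 to 6795 CPM. Both also held the highest thalamus and hypothalamus sums (207.3 and 199 CPM, the other 16 at 117.2 to 149.8). BST 0 h replicate 2 had the highest cortex and hippocampus sum (578.6 CPM) and the lowest sum for large axons (9619 CPM). In CBL the thalamus and hypothalamus sum was 358.2 to 467.9 CPM and the cortex and hippocampus sum 861.3 to 1044 CPM, both above BST. In BRN these sums were 155.2 to 416.9 and 5311 to 7129 CPM. Which tissue the raised sums came from was not tested. Slc6a3, which encodes the dopamine transporter, stood at 19.8 CPM in BST 0 h replicate 2 and at no more than 1.13 CPM in the other 17. BST 2 h replicate 2 differed in another way: it carried Ngp at 8.09, S100a8 at 14.4, S100a9 at 20.7 and Ltf at 5.48 CPM, granule proteins of neutrophils that were named after their values were seen and had medians of 0.249 to 0.846 CPM over BST.

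**Figure D1:**
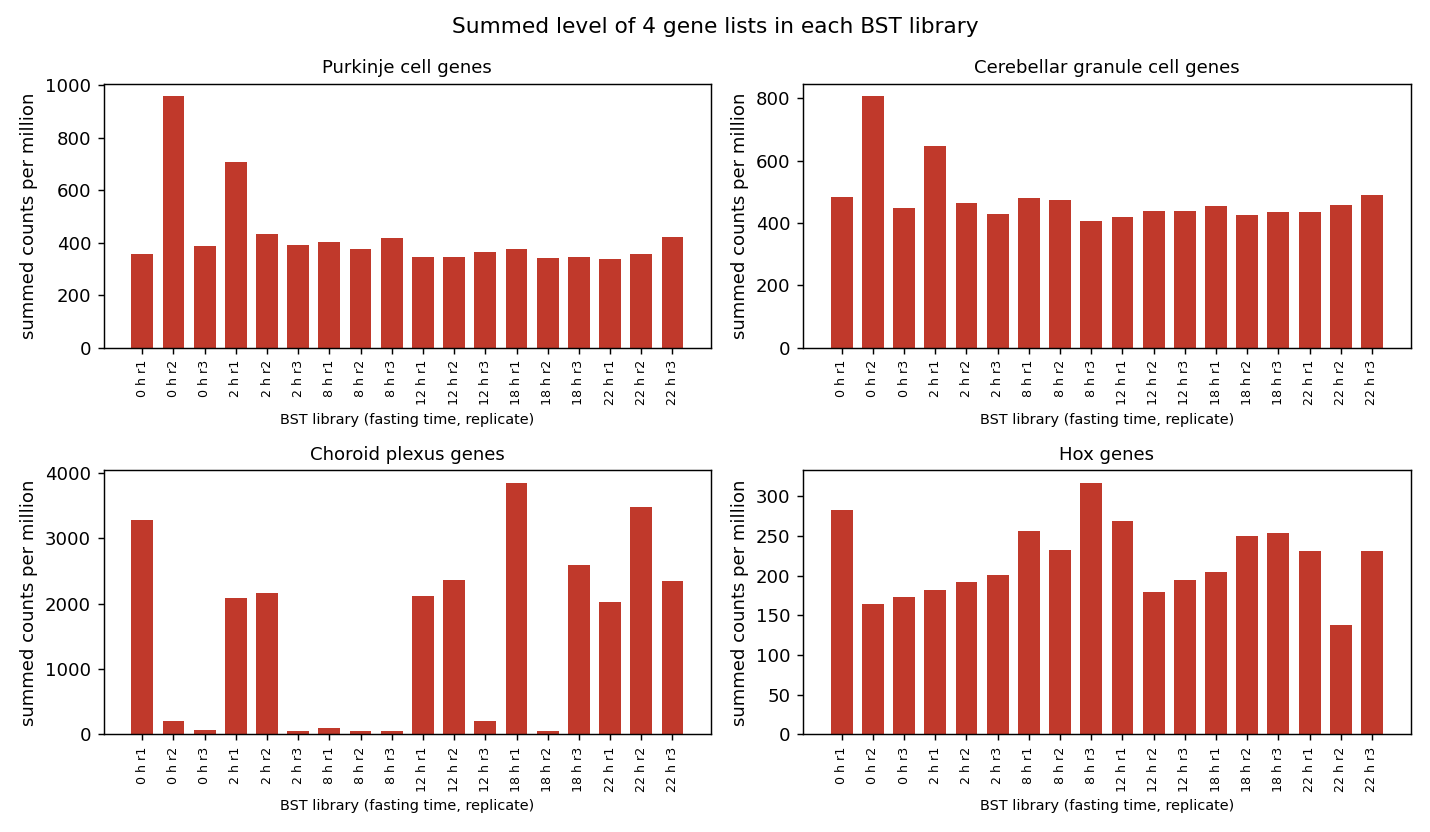
Summed CPM of the Purkinje cell, cerebellar granule cell, choroid plexus and Hox lists in each of the 18 BST libraries, by fasting time, 1 bar a library. BST 0 h replicate 2 and BST 2 h replicate 1 hold the highest Purkinje and granule cell sums, and the choroid plexus sums fall into a set of 10 libraries at 2020 to 3840 CPM and a set of 8 at 44.8 to 211 CPM.

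Choroid plexus transcripts split the BST libraries more widely still. The summed level of 11 choroid plexus markers was 2020 to 3840 CPM in 10 libraries and 44.8 to 211 CPM in the other 8, which are 0 h replicates 2 and 3, 2 h replicate 3, all 3 of 8 h, 12 h replicate 3 and 18 h replicate 2. Ttr, the transthyretin gene and the most abundant of the list, accounted for most of it, at 1850 to 3520 CPM in the first set and 21.8 to 170.6 CPM in the second. The part of these marker differences in the results was not tested, except that the counts of called genes were also made without BST 0 h replicate 2 and BST 2 h replicate 1, a choice made after the data were seen.

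The brainstem links the spinal cord with the forebrain and holds most motor and sensory nuclei of the cranial nerves, the centres for breathing and blood pressure, and the vagal complex that receives signals from the gut. It contains the raphe nuclei, which are the brain's source of serotonin, the locus coeruleus, its main source of noradrenaline, and many inhibitory neurons that release glycine, which are few in the forebrain. Hox genes, which pattern the body axis from the hindbrain backwards, stay silent in the forebrain, the midbrain and the most anterior hindbrain.

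The label was first set against its markers. Slc6a5 (chr7:49910146-49963856, plus strand, GRCm38) encodes the neuronal glycine transporter that loads glycinergic terminals, and it stood at 268 to 565 CPM (median 504) in BST, 0 to 0.401 (median 0.0596) in OB, 0 to 18.4 (median 4.07) in BRN and 24.3 to 44.5 (median 35.3) in CBL. All 18 BST libraries lay above all 52 others. The log2FC was 12.24 ± 0.27 against OB, 6.66 ± 0.21 against BRN and 3.75 ± 0.15 against CBL, with adjusted p of 2.17e-38, 5.57e-32 and 6.62e-28. Tph2 (chr10:115078641-115185022, minus strand) encodes the enzyme that makes serotonin precursor in neurons and was measured at 30.7 to 97.0 CPM (median 42.6) in BST, 0.256 to 0.911 (median 0.619) in OB, 1.62 to 29 (median 10.8) in BRN and 0.528 to 3.52 (median 1.25) in CBL. Here too every BST library lay above every library of the other regions, although by little against the highest of BRN. Its log2FC was 6.38 ± 0.20 against OB, 2.07 ± 0.16 against BRN and 5.16 ± 0.19 against CBL, with adjusted p of 3.82e-34, 1.81e-17 and 2.84e-31. Without BST 0 h replicate 2 and BST 2 h replicate 1 the log2FC was 12.29, 6.71 and 3.79 for Slc6a5 and 6.37, 2.06 and 5.15 for Tph2. In bulk tissue, fewer cells of a type and less RNA per cell cannot be told apart. Of midbrain dopamine neurons, which the labelled mesencephalon holds, Slc6a3 was near 0 in 17 of the 18 BST libraries. Of 9 tested genes of their list, 5 were higher in BST than in BRN and 2, Slc6a3 and Nr4a2, lower (13.7% and 13.0% of all tested genes). Among the 5, En1 and En2 were below a log2FC of 1 with OB and BRN libraries of lane 4 alone.

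Across the transcriptome, BST differed from each region by many genes. Of 18496 tested genes, 2537 were higher in BST than in OB (13.7% of those tested) and 2255 lower (12.2%). Against BRN, 2532 genes were higher (13.7%) and 2410 lower (13.0%), and 3818 were higher without replicate 3 of every group. Against CBL, 2411 genes were higher (13.0%) and 1703 lower (9.21%). The median log2FC over all tested genes was -0.04 against OB, 0.03 against BRN and 0.02 against CBL. The 3 comparisons share the BST libraries and are not independent of each other.

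The genes called in the same direction against all 3 regions numbered 621 higher (3.36% of those tested) and 264 lower (1.43%) in BST. Without BST 0 h replicate 2 and BST 2 h replicate 1 there were 628 higher and 276 lower, of which 610 and 256 were among the 621 and the 264. Without replicate 3 of every group there were 672 higher, and of the 264 lower 61% were still called. The shares of 3.36% and 1.43% stand for comparison beside every count of list members called against all 3 regions below. At every fasting time, 258 of the 621 were more than 1 log2 unit above each region and 77 of the 264 more than 1 unit below. Genes whose BST libraries lay above all libraries of the other 3 regions at each fasting time numbered 960 (5.19% of those tested), and those with every BST library below numbered 404 (2.18%).

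Hox genes filled 14 of the 15 places among the genes furthest above every other region, and the remaining place went to Tbx20, a transcription factor of cranial motor neurons. Tbx20 stood at 1.78 to 4.78 CPM (median 3.22) in BST against 0 to 0.0668 in OB, 0 in BRN and 0 to 0.211 in CBL. No BRN library had a count, OB libraries together had 2, and the log2FC against CBL was 7.01 ± 0.37. The 10 genes furthest below all regions were Cox6a2, Gabrd, Ryr1, Tmem40, Tcap, Egr4, Atp6ap1l, Nr2e1, Asb11 and Cplx3. Gabrd encodes the delta subunit of extrasynaptic GABA-A receptors and was at 2.103 to 15.9 CPM (median 3.32) in BST against 48.1 to 71.9 in OB, a median of 127 in BRN and 186.8 to 248 in CBL. Its BST libraries all lay below those of every other region, and the log2FC was -3.71 ± 0.13 against OB, -4.82 ± 0.13 against BRN and -5.68 ± 0.13 against CBL. The highest BST value of 15.9 CPM came from a library rich in cerebellar transcripts, and without both such libraries the highest was 5.62 CPM and the log2FC -3.99, -5.11 and -5.97. Ryr1, a calcium release channel best known from skeletal muscle, had 0.840 to 3.97 CPM (median 1.63) in BST against 13.1 to 26.5 in OB, 10.4 to 52.7 in BRN and 18.3 to 42.3 in CBL, without overlap. Cox6a2, likewise known from muscle, was at 0 to 0.489 CPM (median 0.0890) in BST against 0.825 to 3.13 in OB, 4.49 to 28.1 in BRN and 0.419 to 2.29 in CBL. Nr2e1, a nuclear receptor of forebrain progenitors, was at 0 to 0.755 CPM in BST and overlapped with CBL at 0 to 0.677 CPM, where its log2FC was -3.03 ± 0.77, or -3.96 without both cerebellum-rich libraries, when the highest BST level was 0.174 CPM. In the same way the highest level fell to 2.39 CPM for Ryr1 and, of genes below, to 6.79 for En2, 17.6 for Gng13, 21.4 for Nrgn and 82.4 CPM for Hbb-bs. Without replicate 3 of every group, Tmem40 and Asb11 were not called lower than BRN, at -2.88 and -4.11.

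Hox genes led the genes higher in BST when ordered by the smallest of the 3 log2FC. Of the 39 mouse Hox genes, 21 passed the filter on low counts, and each of the 21 was called higher in BST than in all 3 other regions, beside 3.36% of all tested genes. None of the 21 would have passed the filter without the BST libraries, as for 318 of all tested genes. Such genes were picked for their level in BST, so this count is a description and not a test of the family. Of the 621 genes called higher than all 3 regions, 30.1% passed in that way. The 18 others had few or no counts anywhere: Hoxb9 had 25 counts over the BST libraries, Hoxd13 had 34, Hoxd9 5 and Hoxc8 4, and each of the rest had 0 or 1. The summed level of the family in CPM was 138.2 to 317 in BST, 0 to 0.334 in OB, 0.285 to 8.83 in BRN and 0.111 to 2.34 in CBL. Within BST it was lowest in 22 h replicate 2 and highest in 8 h replicate 3, and no BST library came near the other regions. The median log2FC of the 21 was 8.69, 7.17 and 7.83 against OB, BRN and CBL, or 8.70, 6.65 and 7.83 with genes at 0 placed at their bound.

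Hoxb5 (chr11:96303336-96306121, plus strand) and Hoxa5 (chr6:52201754-52204587, minus strand) had the highest levels per length in BST, both at 15.8 CPM per kb of exon, while Hoxc4 was at 6.70 and Hoxb3 at 5.81. Hoxb5 was measured at 23.97 to 60.5 CPM (median 44.1) in BST and at no more than 0.0836 CPM in OB, 1.51 in BRN and 0.439 in CBL. The ratio to OB was 5260, with an interval of 1460 to 43400, from 2 counts in all OB libraries together. Hoxa5 stood at 19.2 to 49.99 CPM (median 29.6) in BST, had no count in OB, and reached 5.86 CPM in BRN and 0.424 CPM in CBL. It was at least 2540-fold over OB, and the log2FC was 8.50 ± 0.33 against BRN and 10.36 ± 0.33 against CBL. No library of OB or BRN had a count of Hoxb8, the member furthest above all regions, which ranged widely within BST at 2.66 to 33.8 CPM (median 16.98). It was at least 1280-fold over OB and 598-fold over BRN, and 3050-fold over CBL with an interval of 548 to 121000. Hoxb7 and Hoxa6 had no count in any OB, BRN or CBL library. Hoxb7 was at least 415-fold over OB and 329-fold over CBL, and Hoxa6 at least 66.1-fold over BRN.

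Members differed in their spread among BST libraries. Hoxb6, Hoxb7 and Hoxb8 varied from 2.80 to 23.8, 0.701 to 11.0 and 2.66 to 33.8 CPM, whereas Hoxb3 kept to 16.6 to 30.0 and Hoxb4 to 5.85 to 13.5 CPM. Hoxd8 was the 1 tested member whose BST libraries overlapped with other regions within a fasting time, at 0 to 3.06 CPM (median 0.641). How far down the dissection reached in each animal is not recorded, and its part in this spread was not tested. The strand setting of the authors' counting is not stated, so counts of Hox genes that overlap antisense transcripts are uncertain.

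**Figure D2:**
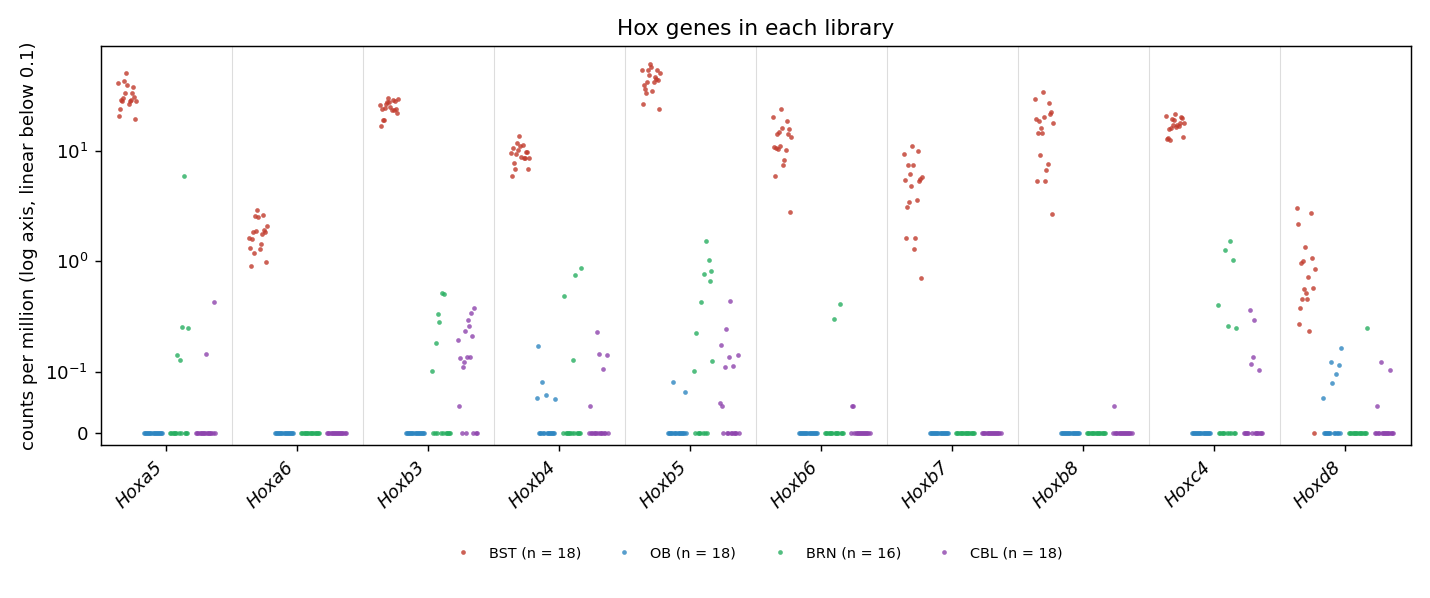
Levels of 10 Hox genes in single libraries of BST, OB, BRN and CBL, in CPM, with BST libraries far above the others. The family's summed level was 138.2 to 316.6 CPM in BST and at most 8.83 CPM in any library of the other regions.

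Transcription factors of the midbrain and hindbrain outside the Hox clusters were more divided. Of 36 listed genes 32 were tested, 13 were called higher than all 3 regions and 0 lower (each by edgeR's test, beside 3.36% and 1.43% of all tested genes), and 5 of the 13 passed the filter only with the BST libraries. Among them were Pax2, Pax8, Lmx1b, Gata2, Fev, Lbx1, Irx2, Pou4f1, Tal1 and Nkx6-1. Against single regions, 28 were higher than OB and 2 lower (13.7% and 12.2% of all tested genes), 22 higher than BRN and 2 lower (13.7% and 13.0%), and 19 higher than CBL and 6 lower (13.0% and 9.21%). Median log2FC was 5.99, 1.69 and 1.14.

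Lbx1, a factor of dorsal interneurons, had 6.70 to 14.7 CPM (median 9.10) in BST against 0 to 0.134 in OB, 0 to 0.225 in BRN and 3.004 to 5.89 in CBL, all BST libraries being highest within their fasting time. Pou4f1, found in several sensory relay and midbrain nuclei, had 11.7 to 22.5 CPM (median 15.4) in BST against 0 to 0.347 in OB, 0.828 to 8.50 in BRN and 0 to 1.35 in CBL and log2FC of 8.80, 2.78 and 4.82. Pax2, which marks inhibitory interneurons of the hindbrain, was at 8.12 to 18.3 CPM (median 14.5). The highest CBL library reached 8.45 CPM and the log2FC against CBL was 1.18 ± 0.11.

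Engrailed genes, which set up the midbrain and hindbrain boundary, were not higher in BST than in CBL. En2 was at 1.62 to 16.4 CPM (median 2.65) in BST against 0 to 0.501 in OB, 0 to 4.12 in BRN and 99.6 to 141.3 in CBL, far lower in BST than in CBL, with a log2FC of -5.03 ± 0.15. Its highest BST value came from BST 0 h replicate 2. Against BRN its log2FC was 1.34 ± 0.29, 0.78 with OB and BRN libraries of lane 4 alone and 0.91 without replicate 2 of every group, the last 2 without a call. En1 was at 0.910 to 4.79 CPM (median 1.83) in BST and 2.20 to 5.44 CPM in CBL, without a call, had no count in OB, and was at -1.11 against CBL, with a call, without replicate 2 of every group. Against BRN its log2FC was 1.44 ± 0.32, or 0.94 with lane 4 alone. Egr2, which patterns hindbrain segments in the embryo, was nearly absent from the adult BST, at 0 to 0.466 CPM against 1.54 to 18.8 in OB and 0 to 11.7 in BRN. Egr2 is also counted among the immediate early genes below. It was called lower than OB and BRN, the second not without replicate 3 of every group (-3.93). Rln3, a peptide gene of the nucleus incertus chosen after its values were seen, was at 0.282 to 20.1 CPM (median 13.6) in BST and at no more than 0.85 CPM in OB, BRN or CBL. The lowest BST level came from BST 2 h replicate 1, and without both cerebellum-rich libraries it was 10.5 CPM.

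Genes of glycine transmission were led by the transporter and a receptor subunit. Of 9 glycinergic genes, Slc6a5 and Glra1 were called higher than all 3 regions and 0 lower, beside 3.36% and 1.43% of all tested genes, and 5 had all BST libraries above the others within each fasting time (5.19% of all tested genes did). Median log2FC was 1.05, 1.38 and 1.17. Glra1, the adult alpha subunit of the glycine receptor, was at 20.2 to 62.4 CPM (median 45.6) in BST, 0 to 0.731 (median 0.247) in OB, 0 to 9.76 (median 0.607) in BRN and 0.0440 to 2.44 (median 0.693) in CBL. Every BST library was above every other library, and the log2FC was 7.39 ± 0.26 against OB, 5.87 ± 0.28 against BRN and 5.77 ± 0.23 against CBL. Glrb, the beta subunit that anchors the receptor, was broadly present at 415 to 500.1 CPM (median 454) in BST against a median of 190.3 in OB, 114.4 to 236 in BRN and 248 to 330.4 in CBL. Its BST libraries also stood highest, yet its log2FC of 1.27, 1.38 and 0.66 against OB, BRN and CBL passed 1 against OB and BRN alone. The glial glycine transporter Slc6a9 was at 163 to 215 CPM (median 189.9) in BST against 93.9 to 131.7 in OB, 37.1 to 82.2 in BRN and 76.5 to 112.4 in CBL, the BST libraries being highest at each time. Slc32a1, the vesicular transporter shared by glycine and GABA, was at 143.4 to 186.5 CPM (median 168.6) in BST against 239.5 to 299 in OB, 89.1 to 125.2 in BRN and 98.7 to 144.8 in CBL, so that BST lay below OB and above BRN without a call against any region.

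Of 21 GABA genes, Gabrg1 and Gabrq were called higher than all 3 regions and Gabrd lower, beside 3.36% and 1.43% of all tested genes, and the median log2FC was -0.13, 0.32 and -0.05. Gad1, which makes GABA, was at 251 to 337 CPM (median 279.9) in BST against 1812 to 2292 in OB, 249 to 454 in BRN and 435 to 707 in CBL. BST was far below OB and partly overlapped with BRN, with log2FC of -2.83 ± 0.05 against OB, -0.28 ± 0.05 against BRN and -1.02 ± 0.05 against CBL. The call against CBL was lost with DESeq2's size factors, at -0.99, and with OB and BRN libraries of lane 4 alone, at -0.98. Gabrq, the theta subunit known from monoaminergic nuclei, was at 20.7 to 28.5 CPM (median 24.1) in BST against 1.06 to 4.19 in OB, 2.99 to 15.6 in BRN and 0.132 to 5.14 in CBL without overlap, and log2FC was 3.0, 1.51 and 3.47. Gabrg1 was at 46.96 to 62.6 CPM (median 58.5) in BST against 20.1 to 41.5 in OB, 17.7 to 33.4 in BRN and 20.3 to 31.6 in CBL, again without overlap, though with offsets for transcript length its log2FC against BRN was 0.91. Gabra6, the granule cell subunit, was at 1.98 to 64.6 CPM (median 6.61) in BST against 0 to 0.274 in OB, 0 to 5.59 in BRN and 825 to 1070 in CBL. It was thus lower in BST than in CBL (log2FC -6.75 ± 0.24, or -7.29 without the pair of cerebellum-rich BST libraries, whose highest level was 64.6 CPM against 10.8 in the others).

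Among glutamate genes, the vesicular transporters differed in opposite directions. Of 28 genes, 2 were called higher than all 3 regions (Slc17a6 and Grin3b) and 2 lower (Slc17a7 and Grm2), beside 3.36% and 1.43% of all tested genes, and the median log2FC was -0.23, 0.00 and 0.07. Slc17a6, the transporter of subcortical excitatory neurons, was at 276 to 320.4 CPM (median 297) in BST, 22.7 to 38.3 (median 28.2) in OB, a median of 60.7 in BRN and 13.1 to 89.6 (median 63.98) in CBL. All BST libraries exceeded all others, with log2FC of 3.42 ± 0.14 against OB, 2.36 ± 0.15 against BRN and 2.34 ± 0.14 against CBL. Slc17a7, its counterpart in cortex and cerebellar granule cells, was at 78.2 to 130.2 CPM (median 108) in BST, 701 to 885 (median 758) in OB, 813 to 1237 (median 1039) in BRN and 449.9 to 596 (median 519.5) in CBL. Here BST was lowest without overlap, with log2FC of -2.82 ± 0.05 against OB, -3.27 ± 0.05 against BRN and -2.28 ± 0.05 against CBL. Grin3b, an NMDA receptor subunit of motor neurons, was at 2.93 to 6.24 CPM (median 4.45) in BST against 0 to 0.579 in OB, 0 to 2.71 in BRN and 0.814 to 2.06 in CBL and was higher in every BST library than in any other. Grm2, a presynaptic metabotropic receptor, was lower at 4.51 to 9.14 CPM (median 6.44) in BST against 93.8 to 123.4 in OB, 9.76 to 47.5 in BRN and 10.6 to 21.1 in CBL, again without overlap.

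**Figure D3:**
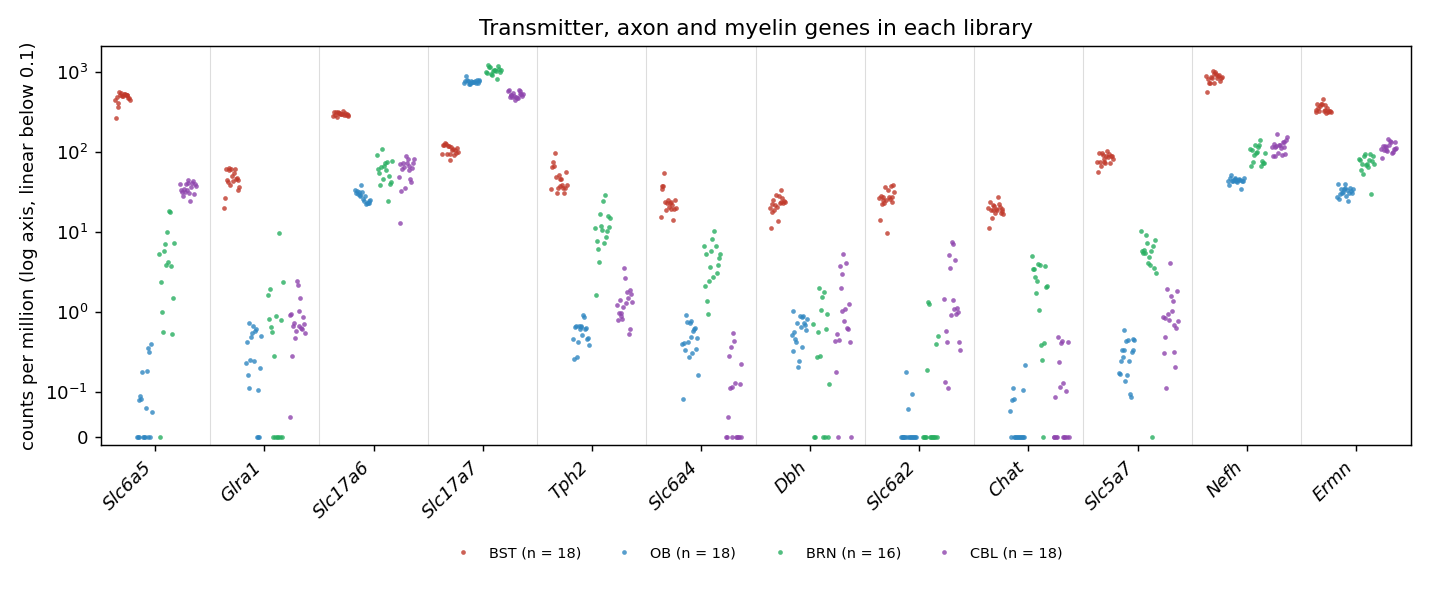
Levels of Slc6a5, Glra1, Slc17a6, Slc17a7, Tph2, Slc6a4, Dbh, Slc6a2, Chat, Slc5a7, Nefh and Ermn in single libraries of the 4 regions, in CPM. Slc17a7 is lower in the BST libraries and the other genes are higher.

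Most serotonin genes were called higher in BST than in all 3 regions. Of 12 genes, 7 were called higher than all 3 regions (Tph2, Slc6a4, Fev, Slc18a2, Gch1, Lmx1b and Gata2) and 0 lower, beside 3.36% and 1.43% of all tested genes. Fev passed the filter only with the BST libraries. Median log2FC was 2.46, 1.27 and 3.29. Slc6a4, the serotonin transporter, was at 14.3 to 54.9 CPM (median 23.1) in BST, 0.0852 to 0.913 (median 0.444) in OB, 0.950 to 10.3 (median 4.30) in BRN and 0 to 0.542 (median 0.0779) in CBL. Every BST library lay above every other, with log2FC of 5.69 ± 0.18 against OB, 2.55 ± 0.16 against BRN and 8.11 ± 0.25 against CBL. Its highest value, 54.9 CPM, and that of Tph2, 97.0 CPM, came from 1 library, BST 2 h replicate 2. Slc18a2, which packs monoamines into vesicles, was at 32.3 to 66.6 CPM (median 46.6) in BST against 4.92 to 9.08 in OB, 6.25 to 24.4 in BRN and 0.222 to 6.87 in CBL without overlap, and its log2FC was 2.78, 1.80 and 4.85. Fev, the factor that defines serotonin neurons, was sparse at 0.284 to 2.26 CPM (median 1.11) in BST, with 1 count in all OB libraries together, a ratio of 298 (interval 53.0 to 11800). Htr1a, the raphe autoreceptor that also serves forebrain neurons, was at 20.7 to 29.6 CPM (median 24.6) in BST against 6.34 to 10.8 in OB, 8.78 to 19.8 in BRN and 0.176 to 5.09 in CBL, and its log2FC against BRN was 0.86 ± 0.13 over all libraries and 1.06 with OB and BRN libraries of lane 4 alone. Slc22a3, a low-affinity monoamine transporter, was not called against OB or BRN, and its log2FC against BRN of 0.18 ± 0.19 became 1.57 without replicate 3 of every group.

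Genes of noradrenaline neurons showed the same direction for the transporter and the enzyme. Of 9 genes, 4 were called higher than all 3 regions, Dbh and Slc6a2 among them, and 0 lower, beside 3.36% and 1.43% of all tested genes, and 2 of the 4 passed the filter only with the BST libraries. Median log2FC was 0.90, 1.28 and 3.26. Dbh, which turns dopamine into noradrenaline, was at 11.3 to 33.2 CPM (median 23.2) in BST, 0.206 to 1.02 (median 0.621) in OB, 0 to 1.98 (median 0.427) in BRN and 0 to 5.26 (median 0.706) in CBL. BST libraries were above all others, and log2FC was 5.22 ± 0.26 against OB, 5.33 ± 0.32 against BRN and 4.26 ± 0.25 against CBL. Slc6a2, the noradrenaline transporter, was at 9.81 to 38.1 CPM (median 26.7) in BST against 0 to 0.180 in OB, 0 to 1.32 in BRN and 0.111 to 7.58 in CBL, again without overlap, with log2FC of 10.28 ± 0.54 against OB, 8.52 ± 0.59 against BRN and 4.0 ± 0.30 against CBL. Th, shared by all catecholamine neurons, was lower in BST than in OB, whose own dopamine neurons express it, at 11.97 to 23.8 CPM (median 16) in BST against 205 to 297 in OB, 10.6 to 27.7 in BRN and 4.33 to 12.4 in CBL. Its log2FC was -3.91, -0.24 and 0.89 against OB, BRN and CBL. Pnmt, the enzyme that makes adrenaline, reached no more than 0.516 CPM in any BST library and was called lower than BRN (log2FC -1.68 ± 0.53, or -0.95 and no call without replicate 3 of every group).

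Genes of midbrain dopamine neurons were divided. Of 11 genes 9 were tested, Slc10a4 was called higher than all 3 regions and Nr4a2 lower (0 lower without replicate 3 of every group), beside 3.36% and 1.43% of all tested genes, and Pitx3 and Foxa2 were too low to test, with 22 and 13 counts in BST. Against single regions, 5 were higher than OB and 3 lower (13.7% and 12.2% of all tested genes), 5 higher than BRN and 2 lower (13.7% and 13.0%), and 1 higher than CBL and 2 lower (13.0% and 9.21%), with median log2FC of 2.63, 1.16 and 0.23. Slc6a3 was at 0 to 19.8 CPM (median 0.164) in BST against 8.94 to 15.1 in OB, 7.46 to 33.1 in BRN and 0 to 0.407 in CBL. Apart from the 19.8 CPM of BST 0 h replicate 2, BST was below both OB and BRN, with log2FC of -5.07 ± 0.39 and -5.72 ± 0.39, or -5.67 and -6.32 without that library and BST 2 h replicate 1. Slc10a4, a vesicular protein of cholinergic and monoaminergic neurons, was at 14.5 to 24.2 CPM (median 19.8) in BST against 0 to 0.687 in OB, 4.37 to 14.4 in BRN and 0.103 to 1.49 in CBL and highest in BST at each fasting time.

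Of 12 cholinergic and motor neuron genes 10 were tested and 8 were higher than all 3 regions (Chat, Slc18a3, Slc5a7, Ache, Prph, Calca, Calcb and Chodl) and 0 were lower, beside 3.36% and 1.43% of all tested genes, and all 8 were without overlap within fasting time (5.19% of all tested genes were). Calcb passed the filter only with the BST libraries. Median log2FC was 6.53, 3.31 and 5.53. Chat, which makes acetylcholine, was at 11.1 to 27.5 CPM (median 19.1) in BST, 0 to 0.221 (median 0) in OB, 0 to 5.06 (median 2.30) in BRN and 0 to 0.487 (median 0.0448) in CBL. BST stood above all others, and log2FC was 8.97 ± 0.29 against OB, 3.41 ± 0.20 against BRN and 7.37 ± 0.26 against CBL. Slc5a7, the choline transporter, was at 55.9 to 102.7 CPM (median 84.5) in BST against 0.0885 to 0.601 in OB, 0 to 10.2 in BRN and 0.111 to 4.06 in CBL. Slc18a3, the vesicular acetylcholine transporter, was at 12.6 to 28.6 CPM (median 21.5) in BST and had 3 counts in all of OB, a ratio of 1720 (interval 587 to 8320). Prph, an intermediate filament of motor and sensory axons, was at 24.3 to 50.7 CPM (median 44.2) in BST against 0.0607 to 0.525 in OB, 0 to 8.83 in BRN and 0 to 2.92 in CBL and Calcb, a peptide of motor neurons, at 2.89 to 7.19 CPM (median 5.14) in BST against 0 to 0.134 in OB, 0 to 1.93 in BRN and 0 to 0.292 in CBL. Isl1, a motor neuron factor that striatal neurons share, was at 1.02 to 3.50 CPM (median 2.40) in BST and 0 to 10.1 (median 5.54) in BRN. Its log2FC against BRN was -1.10 ± 0.20 and was -0.90 with lane 4 alone and turned to 0.19 without replicate 3 of every group, so no direction is given.

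Genes of hindbrain feeding and visceral circuits were divided. Of 22 genes 21 were tested, 8 were called higher than all 3 regions (Gcg, Prlh, Calca, Glp1r, Cckar, Ghsr, Adcyap1 and Nps) and Cck lower, beside 3.36% and 1.43% of all tested genes. Of the 8, Gcg, Prlh, Glp1r, Ghsr and Nps passed the filter only with the BST libraries, so their calls are a description and not a test. Against single regions, 13 were higher than OB and 3 lower (13.7% and 12.2% of all tested genes), 9 higher than BRN and 7 lower (13.7% and 13.0%), and 16 higher than CBL and 2 lower (13.0% and 9.21%), and 3 were without overlap within fasting time (5.19% of all tested genes were). Median log2FC was 2.40, 0.33 and 3.36. Gcg, from which neurons of the solitary tract nucleus make GLP-1, was at 0.783 to 3.73 CPM (median 1.64) in BST against 0.0687 to 0.607 in OB, 0 to 0.142 in BRN and 0 to 0.114 in CBL. All BST libraries were above all others, and the ratios to BRN and CBL were 97.0 (interval 26.6 to 804) and 110 (37.3 to 537). Glp1r, the receptor for that peptide, was at 0.611 to 2.40 CPM (median 1.67) in BST against 0 to 0.493 in OB, 0 to 1.42 in BRN and 0 to 0.206 in CBL. Prlh, a satiety peptide of the same nucleus, was at 0.1402 to 2.25 CPM (median 0.975) in BST. It had 1, 11 and 2 counts in all of OB, BRN and CBL. The 11 came from 1 BRN library, and over the 6 times the log2FC against BRN ran from 0.62 to 6.76. Calca, the calcitonin gene-related peptide of the parabrachial nucleus and of motor neurons, was at 16.9 to 31.0 CPM (median 24.2) in BST against 0.347 to 1.82 in OB, 0 to 5.11 in BRN and 0.333 to 6.10 in CBL without overlap. Adcyap1, the PACAP gene, was at 31.4 to 43.1 CPM (median 35.7) in BST against 9.73 to 23.02 in OB, 3.86 to 26.5 in BRN and 8.35 to 15.2 in CBL. Nps, made by a small cell group near the locus coeruleus, was at 0.0861 to 1.99 CPM (median 0.842) in BST and 0 to 1.58 CPM in CBL. Gfral, the receptor for GDF15 in the area postrema, was too low to test, with 59 counts in BST and 0 in every other region.

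Cck, a peptide of forebrain interneurons in the same list, was lower in BST, at 9.39 to 28.3 CPM (median 15.5) in BST against 84.3 to 166.5 in OB, 185 to 409 in BRN and 27.9 to 43.3 in CBL, with log2FC of -2.89, -4.09 and -1.20.

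Genes of large, fast-conducting axons were abundant in BST, and most were higher there than in OB and BRN. Of 21 genes, 8 were called higher than all 3 regions (Nefl, Nefm, Nefh, Prph, Vamp1, Scn4b, Sncg and Spp1) and 0 lower, beside 3.36% and 1.43% of all tested genes, and 13 had every BST library above all others within fasting time (5.19% of all tested genes did). Against single regions, 18 were higher than OB (13.7% of all tested genes), 15 higher than BRN (13.7%), and 10 higher than CBL and 1 lower (13.0% and 9.21%). Median log2FC was 2.90, 2.15 and 0.97, and the summed level in CPM was 9619 to 13540 in BST, 2693 to 3023 in OB, 3721 to 4636 in BRN and 5561 to 6636 in CBL. Nefh, the heavy neurofilament chain, was at 566 to 1018 CPM (median 849.6) in BST, 34.5 to 51.1 (median 44) in OB, 66.4 to 142.2 (median 97.2) in BRN and 88.9 to 165.4 (median 118.4) in CBL. BST was above all others with log2FC of 4.25 ± 0.08 against OB, 3.17 ± 0.08 against BRN and 2.83 ± 0.07 against CBL. Vamp1, the synaptic vesicle protein of hindbrain and spinal terminals, was at 1310 to 1769 CPM (median 1601) in BST against 45.4 to 57.5 in OB, 188.2 to 327 in BRN and 306 to 455 in CBL, and Scn4b, a sodium channel subunit of fast-spiking neurons, at 409 to 652 CPM (median 594) in BST against 1.39 to 5.94 in OB, 129.8 to 358 in BRN and 97.2 to 146.7 in CBL. Syt2, a calcium sensor of fast synapses, was above all others within each time but below the fold threshold against CBL, at 0.73 ± 0.06. Pvalb ran lower in BST than in CBL, at 246 to 311 CPM (median 276) in BST against 3.50 to 12.2 in OB, 67.8 to 279 in BRN and 726 to 1032 in CBL.

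Of 12 genes of perineuronal nets and matrix 11 were tested, Hapln2 was called higher than all 3 regions and 0 lower, and Has2, with 81 counts in BST, was not tested. Median log2FC was 0.40, 0.84 and 0.91. Hapln2, the link protein at nodes of Ranvier, was at 77.1 to 97.7 CPM (median 85.3) in BST against 10.6 to 16.5 in OB, 22.2 to 43.4 in BRN and 27.3 to 39.2 in CBL without overlap, with log2FC of 2.68 ± 0.06 against OB, 1.40 ± 0.07 against BRN and 1.40 ± 0.06 against CBL. Ncan, a proteoglycan of cortical matrix, was lower in BST than in OB and BRN and higher than in CBL, at 37.7 to 53.2 CPM (median 48.99) in BST against 199 to 295 in OB, 144.3 to 231.7 in BRN and 13.1 to 19.9 in CBL.

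Most myelin genes were higher in BST than in OB and CBL. Of 26 genes, 10 were called higher than all 3 regions (Mog, Ermn, Myrf, Ugt8a, Fa2h, Aspa and Gjb1 among them) and 0 lower, beside 3.36% and 1.43% of all tested genes, and 14 were without overlap within fasting time (5.19% of all tested genes were). Against single regions, 23 were higher than OB (13.7% of all tested genes), 11 higher than BRN (13.7%) and 25 higher than CBL (13.0%), with median log2FC of 2.52, 0.82 and 1.53. Ermn and Myrf, a cytoskeletal protein and the master regulator of myelinating cells, were at 311 to 459.6 CPM (median 333) and 128 to 179 (median 164.3) in BST without overlap. Mbp, the most abundant, was at 9737 to 11050 CPM (median 10270) in BST against 1271 to 2125 in OB, 2701 to 16710 in BRN and 2511 to 5019 in CBL, and BRN libraries reached above those of BST. The summed level in CPM was 26900 to 32110 in BST, 4134 to 6193 in OB, 8406 to 34800 in BRN and 7389 to 12610 in CBL. Trf had the lowest log2FC of the list against BRN, and was at 2.46, -0.33 and 1.25 against OB, BRN and CBL.

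Precursors of oligodendrocytes gave 2 calls of 7 genes, Enpp6 and C1ql1, both higher than all 3 regions, and 0 lower, beside 3.36% and 1.43% of all tested genes, with median log2FC of 0.81, 0.45 and 1.49. Enpp6, which marks cells that have begun to mature, was at 34.4 to 48.3 CPM (median 43.2) in BST against 6.41 to 10.4 in OB, 8.90 to 24.99 in BRN and 10.8 to 19.95 in CBL without overlap. C1ql1, which inferior olive neurons also make for their climbing fibres, was at 24.6 to 39.3 CPM (median 31.7) in BST against 8.06 to 15.2 in OB, 6.59 to 18.9 in BRN and 1.89 to 5.43 in CBL, with log2FC of 1.48 ± 0.09 against OB, 1.38 ± 0.10 against BRN and 3.13 ± 0.10 against CBL. Cspg4, of dividing precursors, was at 10.4 to 17.7 CPM (median 14.3) in BST against 5.59 to 10.96 in OB, 12.8 to 29.3 in BRN and 2.47 to 6.97 in CBL and overlapped with BRN.

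Astrocyte genes were mixed. Of 20, 0 were called higher than all 3 regions by edgeR's test and Slc1a3 was lower, with median log2FC of 0.78, 0.61 and 0.28. The glutamate transporter Slc1a3 was lowest in BST, at 190.2 to 296 CPM (median 214) in BST against 598 to 795 in OB, 428 to 789 in BRN and 1023 to 1542 in CBL. The highest BST library lay below the lowest of every other region, and log2FC was -1.69 ± 0.07 against OB, -1.38 ± 0.07 against BRN and -2.49 ± 0.07 against CBL. Mfge8, an opsonin of forebrain astrocytes, was at 26.98 to 48.2 CPM (median 33.03) in BST against a median of 111.4 in OB, 139.3 to 339.7 in BRN and 45.8 to 75.9 in CBL and had every BST library below the others within fasting time, with log2FC of -1.73, -2.71 and -0.68. Aqp4, the water channel, was at 333 to 469 CPM (median 402) in BST against 158 to 261 in OB, 35.7 to 129.6 in BRN and 338 to 463 in CBL, called higher than BRN and OB, the second not without replicate 1 of every group (0.97) or BST 18 h replicate 1 (0.99). Fgfr3 was at 114.1 to 235.2 CPM (median 206) in BST against 51.6 to 100.7 in OB, 70.3 to 186 in BRN and 45.1 to 108.9 in CBL.

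Of 12 microglia genes, 0 were called higher or lower than all 3 regions, and the median log2FC was -0.63 and -0.74 against OB and BRN and 0.83 against CBL. The summed level in CPM was 347 to 492 in BST, 574 to 789 in OB, 468 to 896 in BRN and 195 to 269.8 in CBL. Tmem119 was at 11.5 to 21.2 CPM (median 15.3) in BST against 19.9 to 32.5 in OB, 16.8 to 38.3 in BRN and 6.02 to 10.5 in CBL, so that BST lay between CBL and the forebrain regions, and Ctss at 53.9 to 93.6 CPM (median 72.4) in BST against 53.3 to 90.3 in OB, 45.7 to 85.4 in BRN and 34.3 to 53.96 in CBL. Sall1 was lower in BST than in OB, where other cells also express it, with a log2FC of -2.82 ± 0.07. Among 10 endothelial genes, Flt1 was called higher than all 3 regions and 0 lower, with median log2FC of 1.06, 0.83 and 0.71. Flt1, a receptor for vascular growth factors, was at 38.3 to 61.1 CPM (median 49.5) in BST against 11.5 to 32.7 in OB, 9.66 to 26.9 in BRN and 14.7 to 36.5 in CBL without overlap within fasting time, and its log2FC against CBL of 1.08 ± 0.09 became 0.96 without replicate 2 of every group. Cldn5 was at 20.5 to 47.03 CPM (median 29.9) in BST against 27.1 to 64.3 in OB, 14.4 to 89.7 in BRN and 10.8 to 39.1 in CBL, overlapping with all regions. Of 11 genes of the meninges, 0 were called in all 3, and the median log2FC was -0.85, -0.32 and 0.15. Slc22a6 was lower in BST than in OB and BRN, at 1.03 to 5.50 CPM (median 3.49) in BST against 9.20 to 20.8 in OB, 5.99 to 26.7 in BRN and 3.90 to 8.12 in CBL, and Col3a1 overlapped with all, at 2.50 to 12.6 CPM (median 6.29) in BST against 5.26 to 11.4 in OB, 2.59 to 15.8 in BRN and 2.62 to 6.99 in CBL.

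Choroid plexus genes showed the split among BST libraries described above. Of 11 genes, Prlr, the prolactin receptor, was called higher than all 3 regions and 0 lower, with median log2FC of 3.69, 0.58 and -1.13. Prlr was at 8.54 to 25.4 CPM (median 13.4) in BST against 0 to 0.822 in OB, 0 to 9.31 in BRN and 2.69 to 13.2 in CBL and at 12.8 to 25.4 CPM in the 10 BST libraries rich in choroid plexus markers against 8.54 to 11.5 CPM in the other 8. Its call against CBL, at 1.07 ± 0.17, was lost without replicate 1 of every group (0.87) and without BST 18 h replicate 1 (0.997). The level of Ttr was 21.8 to 3524 CPM (median 1872) in BST against 0.385 to 326 in OB, 478 to 1415 in BRN and 635 to 4996 in CBL, with every BST library of the poorer set below every BRN library, and its call against CBL, at -1.29 ± 0.46, was lost without replicate 2 (-1.19) or 3 (-0.94) of every group. Aqp1 was at 0 to 17.6 CPM (median 6.85) in BST and at a mean of 59.89 CPM in OB. It was the 1 gene of the list called lower in BST than in OB, with a log2FC of -3.83. For Aqp1, BST against CBL gave a log2FC of -0.90 ± 0.33 that became -1.71 without replicate 1 of every group, -1.32 without BST 0 h replicate 1 and -1.05 without BST 8 h replicate 1. Of 6 ependymal genes, Foxj1, which drives motile cilia, was called higher than all 3 regions and 0 lower, with median log2FC of 1.17, -0.39 and 0.09. Foxj1 was at 24.3 to 34.3 CPM (median 29.3) in BST against 9.01 to 13.5 in OB, 6.86 to 21.5 in BRN and 9.07 to 18.8 in CBL, without overlap. Rarres2 was at 6.11 to 10.7 CPM (median 7.69) in BST against 2.65 to 5.26 in OB, 5.30 to 41.7 in BRN and 6.65 to 12.3 in CBL and was lower than BRN at -1.16 ± 0.13, or -0.98 and no call without replicate 2 of every group. For 5 red blood cell genes, 0 were called in all 3 regions, the median log2FC was 0.09, -1.0 and 0.04, and Hbb-bs was at 28.7 to 126.1 CPM (median 51.8) in BST against 23.7 to 124.5 in OB, 28.2 to 441 in BRN and 28.3 to 126.4 in CBL. Alas2 was at 2.45 to 8.41 CPM (median 3.98) in BST against 2.13 to 9.65 in OB, 0 to 9.11 in BRN and 1.70 to 9.51 in CBL.

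Marker lists of the other regions were compared with their own region. All 12 cerebellar granule cell genes and all 10 Purkinje cell genes were called lower in BST than in CBL (9.21% of all tested genes were), with median log2FC of -3.87 and -4.11. Cbln3, of granule cells, was at 4.78 to 132.8 CPM (median 17.8) in BST against 0.112 to 1.26 in OB, 0 to 8.22 in BRN and 1397 to 2020 in CBL. BST lay far below CBL, with log2FC of -6.23 ± 0.23, or -6.70 without the pair of cerebellum-rich libraries, where the highest BST level was 29.3 CPM. Pcp2, of Purkinje cells, was at 0.981 to 23.5 CPM (median 2.30) in BST against 0.0885 to 1.16 in OB, 0 to 3.03 in BRN and 274 to 388 in CBL, with log2FC of -6.65 ± 0.20 against CBL, or -7.11 without that pair. Calb2 stood nearest to CBL among the granule cell genes, and Barhl1 was at -1.93 ± 0.14. Gng13 was lower in BST than in every region, at 7.93 to 26.8 CPM (median 12.7) in BST against 34.7 to 111.1 in OB, 21.3 to 206 in BRN and 177 to 267 in CBL.

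All 14 cortex and hippocampus genes were lower in BST than in BRN (13.0% of all tested genes were), with median log2FC of -3.24, -4.15 and -0.26 against OB, BRN and CBL. Slc17a7, Tbr1 and Nrgn were lower in BST than in all 3 regions. Nrgn, neurogranin, was at 8.41 to 67.5 CPM (median 12.8) in BST against 134.3 to 243 in OB, 903 to 1929 in BRN and 2.90 to 58.2 in CBL, overlapping with CBL. The call of Tbr1 against CBL, at -1.04 ± 0.26, rested on small counts and was lost without replicate 3 of every group (-0.92). It was also lost without BST 2 h replicate 3 (-0.98), BST 8 h replicate 2 (-0.97), BST 12 h replicate 3 (-0.99) or BST 22 h replicate 1 (-0.95). Emx2 was not called against CBL, at -1.16 ± 0.60, and was called without both cerebellum-rich BST libraries, at -1.60, and without BST 0 h replicate 2 (-1.58), BST 12 h replicate 2 (-1.59) or BST 18 h replicate 2 (-1.51). Cux2 was lower than BRN at -1.07 ± 0.07, or -0.92 and no call without replicate 3 of every group.

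Of 10 striatal genes, 7 were lower in BST than in BRN (13.0% of all tested genes were) and 0 higher (13.7%), and 0 were called in all 3, with median log2FC of 0.17, -2.79 and 0.99. Drd1 was at 0.240 to 1.72 CPM (median 0.814) in BST against 1.74 to 3.66 in OB, 25.8 to 64.8 in BRN and 0 to 0.915 in CBL and Penk, which brainstem neurons also make, at 122.6 to 182 CPM (median 158) in BST against 209 to 327 in OB, 139.4 to 406 in BRN and 92.7 to 115.8 in CBL. Of 12 thalamic and hypothalamic genes 11 were tested, Otp was called higher than all 3 regions and 0 lower, and 7 were lower than BRN (13.0% of all tested genes were), with median log2FC of 0.69, -1.72 and 0.36. Otp, a factor of several peptide neuron groups, was at 5.99 to 10.7 CPM (median 9.30) in BST against 0 to 0.105 in OB, 0 to 6.96 in BRN and 0 to 0.352 in CBL. Avp, the vasopressin gene, had 4 counts over all BST libraries and 8.73 to 67.2 CPM in BRN. Nr5a1 had 3 counts in BST and was not tested. All 12 olfactory bulb genes were lower in BST than in OB (12.2% of all tested genes were), with median log2FC of -7.12, -1.55 and 0.56. Dlx1, which drives formation of bulb interneurons, had 14 counts over all BST libraries and stood at 323 to 396 CPM in OB, with a log2FC of -12.59 ± 0.13. Meis2 was at 128 to 168.5 CPM (median 154.7) in BST against 733 to 939 in OB, 73.8 to 155.5 in BRN and 4.04 to 35.6 in CBL.

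**Figure D4:**
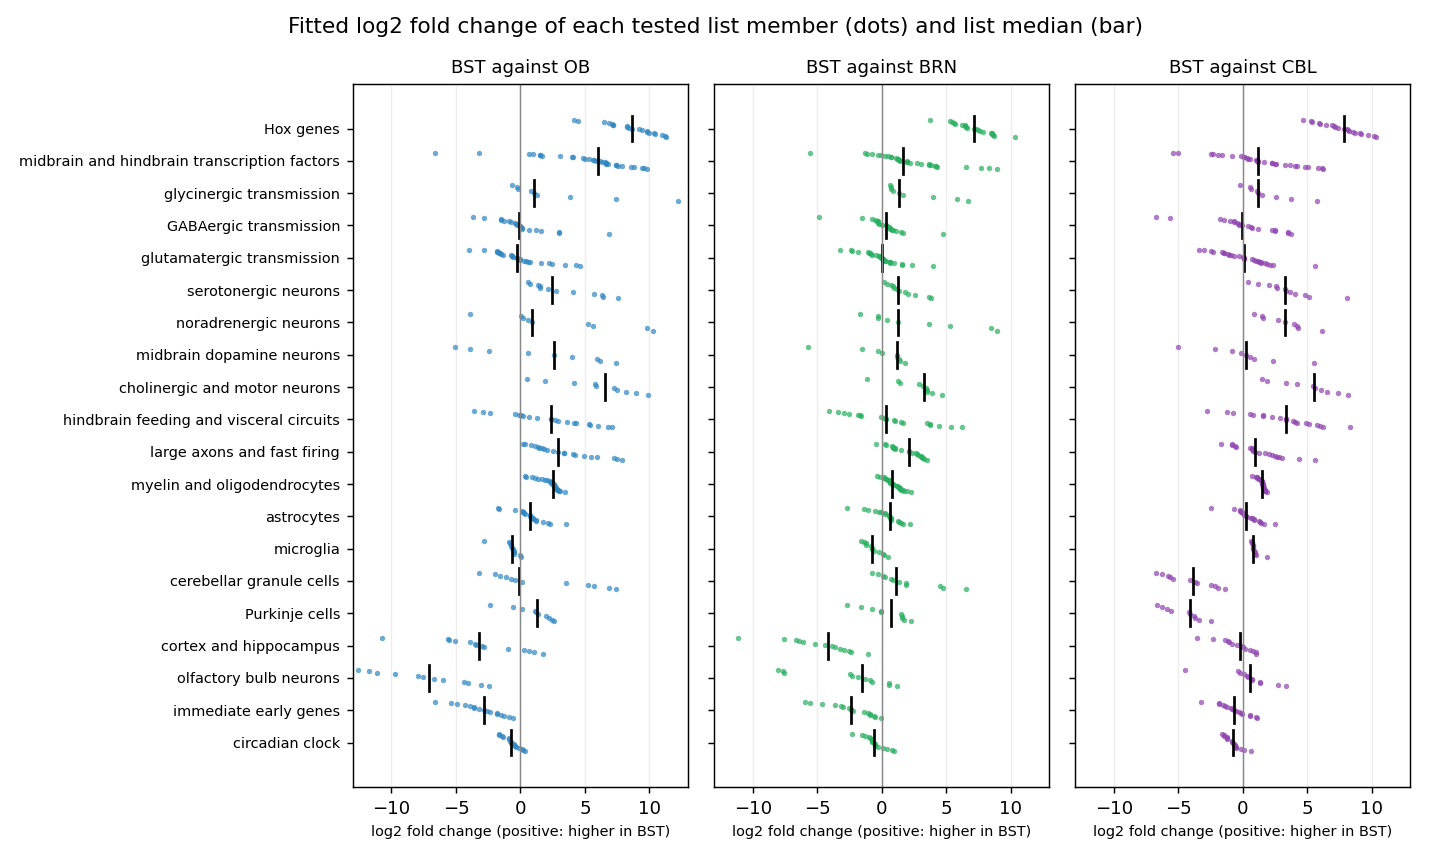
Log2FC of BST against OB, BRN and CBL for the members of 20 gene lists, 1 dot a gene and a bar at each list's median. Hox genes have medians of 8.69, 7.17 and 7.83, or 8.7, 6.65 and 7.83 with genes at 0 placed at their bound. All tested Hox genes passed the filter on low counts only with the BST libraries, so their medians are a description. Over all tested genes the medians are -0.04, 0.03 and 0.02.

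Immediate early genes, which neuronal activity induces, were mostly lower in BST than in OB and BRN. Of 17 genes, 0 were called higher than all 3 regions by edgeR's test and 4 lower (Egr4, Nr4a1, Nr4a3 and Ier2), beside 3.36% and 1.43% of all tested genes. Against OB 15 were lower (12.2% of all tested genes), against BRN 12 (13.0%) and against CBL 6 (9.21%), where 2 were higher (13.0%), with median log2FC of -2.83, -2.36 and -0.68. The summed level in CPM was 153.2 to 224 in BST, 407 to 1687 in OB, 480.1 to 1303 in BRN and 227 to 387 in CBL. Egr1 was at 15.9 to 32.95 CPM (median 22.98) in BST against 53.3 to 473 in OB, 113.6 to 329 in BRN and 26.6 to 46.9 in CBL. Every BST library lay below every OB and BRN library, while some CBL libraries overlapped, and log2FC was -3.64 ± 0.17 against OB, -3.0 ± 0.18 against BRN and -0.55 ± 0.17 against CBL. Egr4 was at 0.204 to 0.841 CPM (median 0.467) in BST against 6.41 to 31.0 in OB, 14.5 to 49.2 in BRN and 2.44 to 5.76 in CBL, with the BST libraries lowest of all. Nr4a1, an orphan nuclear receptor, was at 4.59 to 12.96 CPM (median 9.12) in BST against 33.5 to 282 in OB, 38.3 to 142.4 in BRN and 9.06 to 42.7 in CBL, and Nr4a3 at 3.16 to 9.03 CPM (median 5.03) in BST against 6.24 to 53.4 in OB, 15.5 to 44.1 in BRN and 4.65 to 34.2 in CBL. The call of Ier2 against BRN, at -1.07 ± 0.18, was lost with length offsets (-0.85) and with DESeq2 (-0.98) and turned to 0.39 without replicate 3 of every group. Jun was at 30.7 to 41.2 CPM (median 35.3) in BST against 58.9 to 78.6 in OB, 27.3 to 52.3 in BRN and 43.1 to 69.04 in CBL, without a call against any region. The order in which organs were taken is not recorded, and its part was not tested.

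Clock genes lay lower in BST at the median. Of 17 genes, Per1 was called lower than all 3 regions and 0 higher, and the BST libraries were below all others within fasting time for 4 (2.18% of all tested genes were). Median log2FC was -0.73, -0.60 and -0.74, a direction that held with both size factor methods. Per1, a core repressor of the clock, was at 25.02 to 61.6 CPM (median 46.9) in BST against 75.0 to 203 in OB, 84.2 to 166.4 in BRN and 71.6 to 136.7 in CBL, with log2FC of -1.69 ± 0.10 against OB, -1.50 ± 0.10 against BRN and -1.23 ± 0.10 against CBL. Npas2, a partner of the clock activator, was at 3.65 to 7.92 CPM (median 5.16) in BST against 10.8 to 16.7 in OB, 7.34 to 40.8 in BRN and 2.41 to 4.26 in CBL and was called lower than OB and BRN, and Bhlhe41 was at 56.7 to 66.97 CPM (median 60.4) in BST against 48.3 to 62.8 in OB, 28.6 to 77.3 in BRN and 44.7 to 67.01 in CBL, without a call against any region.

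The length of the fast was then asked about. A test with 5 degrees of freedom compared the BST minus OB difference at the later times with that at 0 h, and called 0 genes (0% of those tested) with edgeR's quasi-likelihood test. At an unadjusted p under 0.05 there were 831 genes, and DESeq2 called 19. The same test against CBL called 0 genes (0%), with 742 at an unadjusted p under 0.05 and 22 by DESeq2. Against BRN it called 5586 genes (30.2%). In this fit 1 spread was shared by all 4 regions, and BRN libraries varied most. With each pair of regions fitted alone, a choice made after the data were seen, 957 genes were called against OB (5.17%), 913 against BRN (4.94%) and 56 against CBL (0.303%). The part of the shared spread, of BRN's lower depth, its 5 lane numbers and its higher share of mitochondrial counts was not tested. By the library numbers in the column headers, BRN libraries of 0 h share a number series, and those used of 8, 18 and 22 h share another. Replicate 3 of 2 and 12 h has the series of 0 h. Without replicate 3, series and the step from 0 h to later times cannot be told apart in BRN. No BST or OB library has either series. Within BST, all libraries of 0 h share a series, all of 2 and 12 h share another, and 8, 18 and 22 h hold both. Series and the step from 0 h to 2 or 12 h therefore cannot be told apart in BST. The part of the series was not tested. With OB and BRN libraries of lane 4 alone, tests over the times that lane holds (8 to 22 h for OB, and 2, 8, 12 and 22 h for BRN), with fewer degrees of freedom, called 219 genes against OB and 68 against BRN. Without the pair of BST libraries rich in cerebellar transcripts, the counts were 0 against OB (690 at an unadjusted p under 0.05), 4443 against BRN and 0 against CBL (590 unadjusted). Leaving out replicate 1, 2 or 3 of every group gave 845, 2361 and 9254 genes against BRN.

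Genes with the smallest p values of that test were a mixed set. Against OB they were Wfdc2 (adjusted p 0.0674), Slc6a3 (0.14) and Huwe1 (0.153), with edgeR's test and without a call. For Slc6a3 the BST level at 0 h came from a single library. Wfdc2, a secreted protease inhibitor, was at 0 to 3.48 CPM (median 0.901) in BST against 0 to 3.16 in OB, 0 to 10.4 in BRN and 0.377 to 4.18 in CBL, and its log2FC against CBL, -1.03 ± 0.35, lost its call without both cerebellum-rich libraries (-0.99). Against CBL the genes were Pnn, Polr2a and Gm13111, each with an adjusted p of 0.119 and no call. Against BRN they were Adgrl2, Eml6 and Rpl30-ps8, each with an adjusted p of 7.81e-06. The differences by time for Adgrl2, a latrophilin receptor, ran from -0.73 to 0.74 in log2FC, although its BST libraries kept to 39.5 to 53.4 CPM and its BRN libraries to 24.99 to 75.8 CPM.

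The markers stood apart at each fasting time. Over the 6 times the log2FC of Slc6a5 ran from 11.10 to 13.43 against OB, 5.52 to 7.81 against BRN and 3.53 to 4.01 against CBL. That of Tph2 ran from 5.61 to 7.28 against OB, 1.04 to 3.04 against BRN and 4.47 to 6.02 against CBL. Against BRN both were called as dependent on time (adjusted p 0.0467 and 0.00555), but not with BST and BRN fitted alone (0.38 and 0.148). Of the 621 genes higher in BST than in all 3 regions, 559 had the same sign at every fasting time against every region, and 226 of the 264 lower ones. Genes that answer to glucocorticoids and fasting gave 0 calls of 14 against all 3 regions, and the median log2FC was 0.37, 0.41 and 0.13. Their summed level in BST averaged 812, 1130, 910, 990, 1100 and 1290 CPM from 0 h to the longest fast, over 3 libraries each. Sgk1, a kinase gene of the glucocorticoid response that oligodendrocytes also express, had BST means of 136.7 ± 82.04, 254 ± 59.3, 148.3 ± 71.7, 197 ± 1.71, 285 ± 134.2 and 375 ± 75.97 CPM (SD, n = 3) in the same order of times. The difference between regions was not called as dependent on time (adjusted p 1.00 against each region with edgeR's test). Pdk4, a kinase that restrains glucose oxidation, was at 16.8 to 38.8 CPM (median 22.7) in BST against 4.24 to 7.70 in OB, 0 to 16.03 in BRN and 8.63 to 16.98 in CBL, highest in BST within each time. Fkbp5 was at 27.6 to 57.2 CPM (median 39.99) in BST against 41.9 to 74.3 in OB, 35.04 to 64.6 in BRN and 10.4 to 29.1 in CBL.

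Promoter windows are shown for 4 genes on which the account of BST turns, the glycine transporter, the serotonin enzyme, the serotonin neuron factor and the noradrenaline enzyme, as 300 bases from RefSeq of build GRCm38.p6, written 5′ to 3′ on the strand of the gene. RefSeq sets them, and by the Gencode gene starts those of Slc6a5, Tph2 and Fev lie partly, and that of Dbh wholly, inside the gene. Capitals mark matches to any of 3 motifs that were searched on both strands, the TATA box TATAAA (reverse TTTATA), a homeodomain core CAATTA (reverse TAATTG) and a GATA core GATAAG (reverse CTTATC). Of 32851 mouse promoters of that length, 4473 (13.6%) hold the first, 2628 (8.00%) the second and 2445 (7.44%) the third. The Slc6a5 window is chr7:49910049-49910348 on the plus strand, that of Tph2 chr10:115184973-115185272 on the minus strand, that of Fev chr1:74885359-74885658 on the minus strand and that of Dbh chr2:27165257-27165556 on the plus strand.
Slc6a5: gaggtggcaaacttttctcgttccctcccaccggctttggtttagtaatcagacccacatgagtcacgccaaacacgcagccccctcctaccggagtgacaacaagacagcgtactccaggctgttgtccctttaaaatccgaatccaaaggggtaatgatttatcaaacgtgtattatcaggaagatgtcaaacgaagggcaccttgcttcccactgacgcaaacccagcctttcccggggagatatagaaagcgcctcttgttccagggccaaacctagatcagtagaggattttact
Tph2: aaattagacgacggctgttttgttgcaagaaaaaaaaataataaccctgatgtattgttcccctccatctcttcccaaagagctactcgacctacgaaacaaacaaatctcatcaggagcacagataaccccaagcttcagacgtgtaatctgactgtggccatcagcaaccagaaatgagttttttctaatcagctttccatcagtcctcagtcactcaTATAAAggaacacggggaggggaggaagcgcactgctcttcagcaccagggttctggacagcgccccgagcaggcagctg
Fev: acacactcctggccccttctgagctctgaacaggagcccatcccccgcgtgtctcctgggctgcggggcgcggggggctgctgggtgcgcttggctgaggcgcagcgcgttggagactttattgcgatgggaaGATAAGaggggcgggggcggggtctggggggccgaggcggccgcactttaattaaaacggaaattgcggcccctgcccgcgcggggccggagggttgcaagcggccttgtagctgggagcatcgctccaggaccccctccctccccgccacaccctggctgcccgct
Dbh: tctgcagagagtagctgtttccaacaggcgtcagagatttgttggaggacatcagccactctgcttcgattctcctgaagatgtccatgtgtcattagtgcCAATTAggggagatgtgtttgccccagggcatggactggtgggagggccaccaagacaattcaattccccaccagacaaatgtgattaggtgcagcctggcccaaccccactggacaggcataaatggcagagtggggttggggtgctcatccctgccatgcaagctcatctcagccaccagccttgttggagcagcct

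Tph2 holds 1 match to the TATA box, Fev 1 to the GATA core and Dbh 1 to the homeodomain core, and the Slc6a5 window holds none of these letters. A match is a description of the letters and not a binding site.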

How the data were processed

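The deposited table holds raw read counts for each gene symbol in 162 libraries, and the authors made these counts with HTSeq 0.9.1 (exon features, union mode) on TopHat2 2.1.1 alignments to GRCm38.p5, with Gencode M16. The columns of BST, OB, BRN and CBL (70 libraries, 18, 18, 16 and 18) were used; 2 BRN libraries were left out by the choice of members and used in an alternative. Members and gene lists were chosen with earlier results of these data known. The lists were written by hand from general knowledge. Symbols with a CPM reaching 10 counts at the median library size in at least 3 libraries were tested, 18496 of 53686, of which 2 symbols are duplicated names turned into dates by a spreadsheet.

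Groups are region by fasting time with 3 libraries each, fewer for BRN at 8 and 18 h. In R 4.3.3, edgeR 4.0.16 (TMM, quasi-likelihood, robust) tested the mean over the 6 times of BST minus each region, and an F test with 5 degrees of freedom tested whether that difference depended on time. P values were adjusted by Benjamini-Hochberg over all tested genes, and a gene was called at an adjusted p under 0.05 and a log2FC beyond 1. The calling steps were tried on simulated data with known changes, the same spread in all regions and no animal effect. That trial cannot show how the calls behave where the spread differs between regions, as it does here for BRN.

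Alternatives were RLE size factors, no filter, other fold thresholds, an animal block, length offsets from Gencode M21 exons (97.5% of tested genes matched), both together, other sets of BRN libraries, lane 4 libraries, DESeq2 1.42.0 and 21 fits leaving libraries out. Fits of single pairs and without BST 0 h replicate 2 and BST 2 h replicate 1 were chosen after seeing the data. Pairing was checked: over 102 pairs of regions of 1 animal, residuals correlated at 0.024 on average, and at -0.012 between animals. Residuals were taken from the mean of each small group, which ties the second value to the first, so it is no separate reference. An average over all genes cannot show the part of the animal in single genes. Animals were not blocked in the reported values because the study's methods describe no block.

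Named genes are the 2 markers, the 15 genes furthest above and the 10 furthest below all 3 regions among those called (leaving out clone names), from each list the members with the largest and the smallest value of the smallest log2FC of 3 and members with a well known role in brainstem, and the 3 genes with the smallest p of the time test in each pair. Some genes of the lists are counted with them but not reported here by name. Promoter sequences and positions are from RefSeq and Gencode annotation of GRCm38 and its patch GRCm38.p6 (credit to NCBI RefSeq). BST libraries held 6998492 to 11776354 counts, so that 3 counts are 0.258 to 0.425 CPM.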

Additional observations from a re-analysis of the deposited data

Results flagged for a closer look

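For 49 of 162 named genes (30.2%), beside 30.2% of all tested genes, the difference between BST and BRN was not the same at all 6 fasting times, with edgeR's quasi-likelihood test and Benjamini-Hochberg adjustment over all 18496 tested genes, the 4 regions fitted together. The share is that of all genes, so the list says nothing particular about these genes. With BST and BRN fitted alone, an alternative chosen after seeing the data, 34 of the 49 were not called, the markers Slc6a5 and Tph2 (adjusted p 0.38 and 0.148) among them, and 15 were: Hoxa5, Slc6a4, Slc6a3, Glp1r, Cartpt, Scn4b, Pvalb, Sncg, Myrf, Trf, Gng13, Huwe1, Adgrl2, Eml6 and Rpl30-ps8. Each of the 49 is given below with the lowest and highest log2FC of BST over BRN among the 6 times and its adjusted p in the fit of 4 regions. Where BRN had no count at a time, the fitted log2FC depends on the prior count and is no bound. Genes of this kind were Slc6a5 (5.52 to 7.81, adjusted p 0.0467), Tph2 (1.04 to 3.04, adjusted p 0.00555), Hoxa5 (3.92 to 11.21, adjusted p 0.009), En1 (-0.20 to 3.17, adjusted p 0.0456) and Pax2 (4.99 to 10.24, adjusted p 0.0136). Others were Pax8 (1.39 to 6.55, adjusted p 0.00359), Grin3b (1.82 to 8.56, adjusted p 0.0474), Slc6a4 (1.58 to 4.69, adjusted p 0.000353), Slc6a3 (-8.01 to -1.11, adjusted p 0.000188) and Aldh1a1 (1.5 to 2.23, adjusted p 0.0188). The same held for Chat (2.17 to 6.17, adjusted p 0.0474), Glp1r (0.52 to 7.17, adjusted p 0.00104), Cck (-4.59 to -3.38, adjusted p 0.00873), Cartpt (-2.60 to -0.24, adjusted p 0.000414) and Scn4b (0.86 to 2.05, adjusted p 0.0032). Further genes were Pvalb (0.48 to 1.95, adjusted p 0.000704), Sncg (2.32 to 3.76, adjusted p 0.00171), Mbp (-0.09 to 1.66, adjusted p 0.0252) and Myrf (0.98 to 2.23, adjusted p 0.00082). Then came Trf (-0.97 to 1.10, adjusted p 0.000476), Mfge8 (-3.05 to -2.18, adjusted p 0.0167), Ctss (-0.19 to 0.60, adjusted p 0.0105), Cldn5 (-0.84 to 0.67, adjusted p 0.0325) and Col3a1 (-1.41 to 0.80, adjusted p 0.0126). The test also called Ttr (-5.05 to 1.35, adjusted p 0.0493), Aqp1 (-3.96 to 2.40, adjusted p 0.0493), Cbln3 (1.48 to 7.68, adjusted p 0.019), Barhl1 (-0.66 to 1.24, adjusted p 0.0204) and Gng13 (-3.51 to -0.28, adjusted p 4e-04). Ttr and Aqp1 are choroid plexus genes, whose sums were 46.8 to 90.7 CPM in the BST libraries of 8 h and 2020 to 3470 CPM in those of 22 h. Also called were Cux2 (-1.53 to -0.66, adjusted p 0.00832), Emx2 (-8.89 to -3.54, adjusted p 0.0272), Tcf7l2 (-2.83 to -0.41, adjusted p 0.0308), Hbb-bs (-2.44 to 0.35, adjusted p 0.0138) and Jun (-0.36 to 0.18, adjusted p 0.0404). Genes of this kind were Npas2 (-2.92 to -1.62, adjusted p 0.00686), Pdk4 (0.56 to 3.01, adjusted p 0.00509), Hoxb5 (5.71 to 11.57, adjusted p 0.0341), Hoxc5 (4.34 to 10.19, adjusted p 0.0322) and Gabrd (-5.41 to -3.39, adjusted p 0.00109). Others were Tcap (-6.58 to -3.25, adjusted p 0.038), Atp6ap1l (-4.23 to -2.38, adjusted p 0.00183), Cplx3 (-8.22 to -5.15, adjusted p 0.0427), Wfdc2 (-6.13 to 0.09, adjusted p 0.0145) and Huwe1 (-0.35 to 0.48, adjusted p 0.000812). The same held for Adgrl2 (-0.73 to 0.74, adjusted p 7.81e-06), Eml6 (-0.64 to 1.51, adjusted p 7.81e-06), Rpl30-ps8 (-2.38 to 0.22, adjusted p 7.81e-06), Pnn (-0.28 to 0.46, adjusted p 0.0353) and Gm13111 (-2.45 to -0.23, adjusted p 0.0213).

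BRN libraries had the widest spread within groups (median SD of log2 CPM 0.494, against 0.165 in BST), the lowest depth (3045845 counts) and 5 lane numbers. The number series of the BRN libraries differed between 0 h and 8, 18 and 22 h, so series and fasting time cannot be told apart there. The part of these in the calls was not tested. Fitted alone with BST, BRN gave 16 calls among the named genes (9.88%, beside 4.94% of all tested genes), the 15 above and Slc18a2 (1.11 to 2.67, adjusted p 0.0194), which was not called with 4 regions. Adgrl2, Eml6 and Rpl30-ps8 had been named for their small p in this comparison.

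With BST and OB fitted alone, an alternative chosen after seeing the data, the difference between the regions depended on fasting time for 10 named genes (6.17%, beside 5.17% of all tested genes), given in the same way. Wfdc2, Slc6a3 and Huwe1 had been named for their small p against OB. These were Slc17a6 (3.20 to 3.68, adjusted p 0.019), Slc6a3 (-6.91 to -0.79, adjusted p 0.0283), Scn4b (7.05 to 8.41, adjusted p 0.0189), Ctss (-0.17 to 0.39, adjusted p 0.0385) and Cux2 (-1.18 to -0.58, adjusted p 0.012). The others were Wfdc2 (-4.48 to 3.67, adjusted p 0.0186), Huwe1 (0.15 to 0.96, adjusted p 0.0025), Rpl30-ps8 (-1.09 to -0.11, adjusted p 0.0436), Polr2a (-0.67 to -0.11, adjusted p 0.00674) and Gm13111 (-2.91 to -1.59, adjusted p 0.03). OB libraries of 0 and 2 h were sequenced in lane 3 and those of 12 to 22 h in lane 4, so lane and fasting time cannot be told apart there. With BST and CBL fitted alone the difference depended on time for Polr2a (-0.53 to 0.43, adjusted p 0.00121), 1 of 162 named genes (0.617%, beside 0.303% of all tested genes) and named for its small p in this comparison, and CBL libraries of 0 h were the deepest, at 20396385 counts or more. For Slc6a3 the difference from OB was nearest to 0 at 0 h, where BST 0 h replicate 2 held 19.8 CPM.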

How the results depend on the processing

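The direction of the log2FC of every named gene that was called was kept under every alternative except for Isl1 and Ier2 against BRN, which ranged over the fits leaving libraries out from -1.20 to 0.19 (Isl1) and from -1.11 to 0.39 (Ier2), each highest without replicate 3 of every group. Over named genes and alternatives, 15453 log2FC kept their direction and side of the threshold, 54 lost a call, 31 gained it and 2 reversed. Of the counts for gene lists, 1961 stayed within 1.5 times of the reported count, 12 were above and 11 below.

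A log2FC threshold of 2 gave 1787 genes against OB (1008 higher, 779 lower), 1440 against BRN (701, 739), 1294 against CBL (775, 519) and, rounded to 2 digits, 2.1e+02 against all 3 (1.7e+02 higher, 47 lower). With no fold threshold there were 14292 (6845, 7447), 14091 (7222, 6869), 13445 (6876, 6569) and 5325 (2902, 2423). By construction a higher threshold calls fewer genes. With no filter on low counts, 3805 genes were higher than BRN, 981 higher than all 3, and 415 (OB) and 299 (CBL) depended on fasting time, of more genes tested.

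The dependence on fasting time moved most. DESeq2 called 19 genes against OB and 22 against CBL. Length offsets gave 1 against OB. With the 2 shallow BRN libraries there was 1 gene against OB and 2826 against BRN. OB and BRN libraries of lane 4 alone, at the times that lane holds, gave 219 and 68. Among alternatives chosen after seeing the data, each pair of regions fitted alone gave 957 against OB, 913 against BRN and 56 against CBL. BST and OB alone with OB lane 4 at 8 to 22 h gave 1553 (8.40% of genes), with OB lane 3 at 0 to 8 h 0 (923 at an unadjusted p under 0.05, edgeR), and BST and CBL alone without 0 h gave 9 (0.0487%). The cause was not tested.

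A block for the animal, whose 4 regions share it, gave 2 genes against OB and 1 against CBL for dependence on time, and the block together with length offsets 1 and 3. The cause was not tested.

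Leaving out a replicate number in every group, or a single BST library, gave 2255 to 3818 genes higher than BRN and 1.7e+02 (rounded) to 276 lower than all 3 regions. For dependence on time the ranges were 0 to 3 (OB), 845 to 9254 (BRN) and 0 to 41 (CBL, 41 without BST 0 h replicate 1). Without replicate 3 the median log2FC of all genes against BRN moved to 0.20. In that fit all BRN libraries of 0 h have 1 library number series and all later ones another. The cause was not tested.

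Depth limits genes at few counts: 3 counts in a BST library are 0.258 to 0.425 CPM, and small differences in genes near that level could not be seen. With 3 animals at each time, region and lane joined for CBL, the length of the fast joined with the clock time at which it began, and tissue in bulk, neither cell numbers nor the order of events can be read from these values.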
